A study of Danio rerio with 6 samples.

Results

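The 10 genes described here mark the absorptive lining of the intestine and the digestion that takes place on its surface. They were chosen by name: the villin gene vil1, the peptidase genes anpepa, anpepb, dpp4, mep1a.1 and mep1a.2, the chitinase genes chia.1 and chia.2, the peptide transporter gene slc15a1b and the transcription factor gene cdx1b. All 10 were present, each under 1 gene ID, among 36191 gene IDs in the expression tables, and 9 of them reached the mean level needed for testing. The tenth, mep1a.2, did not, and its values are given without a test.

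The 6 RNA sequencing libraries carry the label liver, and all came from 3-month-old wild-type zebrafish of the AB strain, a standard laboratory line. There were 3 libraries from fish given graphene oxide nanoparticles (GO), thin carbon sheets, and 3 from untreated controls (CK), and each group has replicates numbered 1 to 3. The labels give no dose, exposure time, sex or pooling scheme and do not say that replicates were separate animals, so p-values here reflect only library-to-library spread, and that spread may be technical. Total expected counts were 9739760 to 12998273 per library, and a gene with 0 counts could still be present at up to 0.231 to 0.308 CPM, the unit used below, in which a gene's count is scaled to a common library total.

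Enterocytes, the absorbing cells of the gut, carry a dense carpet of microvilli called the brush border. Its membrane holds peptidases that cut peptides into amino acids and short peptides, and transporters that take these up, while chitinases are secreted into the lumen and cut chitin from food. In mammals villin and several of these peptidases also sit on the brush border of kidney tubule cells. Hepatocytes are the main cells of the tissue named by the labels, and whether they were a source of these transcripts was not tested.

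The replicate 3 libraries of GO and CK were unlike the other 4, so the libraries are kept apart by replicate number throughout. The hepatocyte marker fabp10a, which encodes a fatty acid carrier, reached 121 CPM in GO replicate 3 and 119 CPM in CK replicate 3, but at 1.03 to 1.12 CPM in GO replicates 1 and 2 and at 1.23 to 1.54 CPM in CK replicates 1 and 2. This defining marker of the labelled tissue was thus near 1 CPM, on 12 to 16 counts, in 4 of the 6 libraries. A list of 15 hepatocyte genes summed to 451, 432 and 5968 CPM in GO replicates 1, 2 and 3, against 816, 795 and 6270 CPM in CK replicates 1, 2 and 3. Outside replicate 3 most of each sum came from 1 gene, the plasma protein gene rbp4. It was at 348, 337 and 1053 CPM in GO replicates 1, 2 and 3, against 466, 456 and 881 CPM in CK replicates 1, 2 and 3.

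The summed level of the 10 gut genes followed the replicate number first and the treatment second. It was 25.4 CPM (95% Wilson interval 22.5 to 28.6), 23.0 CPM (20.5 to 25.8) and 974 CPM (956 to 993) in GO replicates 1, 2 and 3. In CK replicates 1, 2 and 3 it was 63.0 CPM (58.1 to 68.1), 61.3 CPM (57.2 to 65.7) and 819 CPM (803 to 836). Among replicates 1 and 2 the GO libraries thus held less of these transcripts than the CK libraries, while GO replicate 3 held more than CK replicate 3. In bulk RNA, fewer cells of a type and less RNA per cell cannot be told apart.

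**Figure D1:**
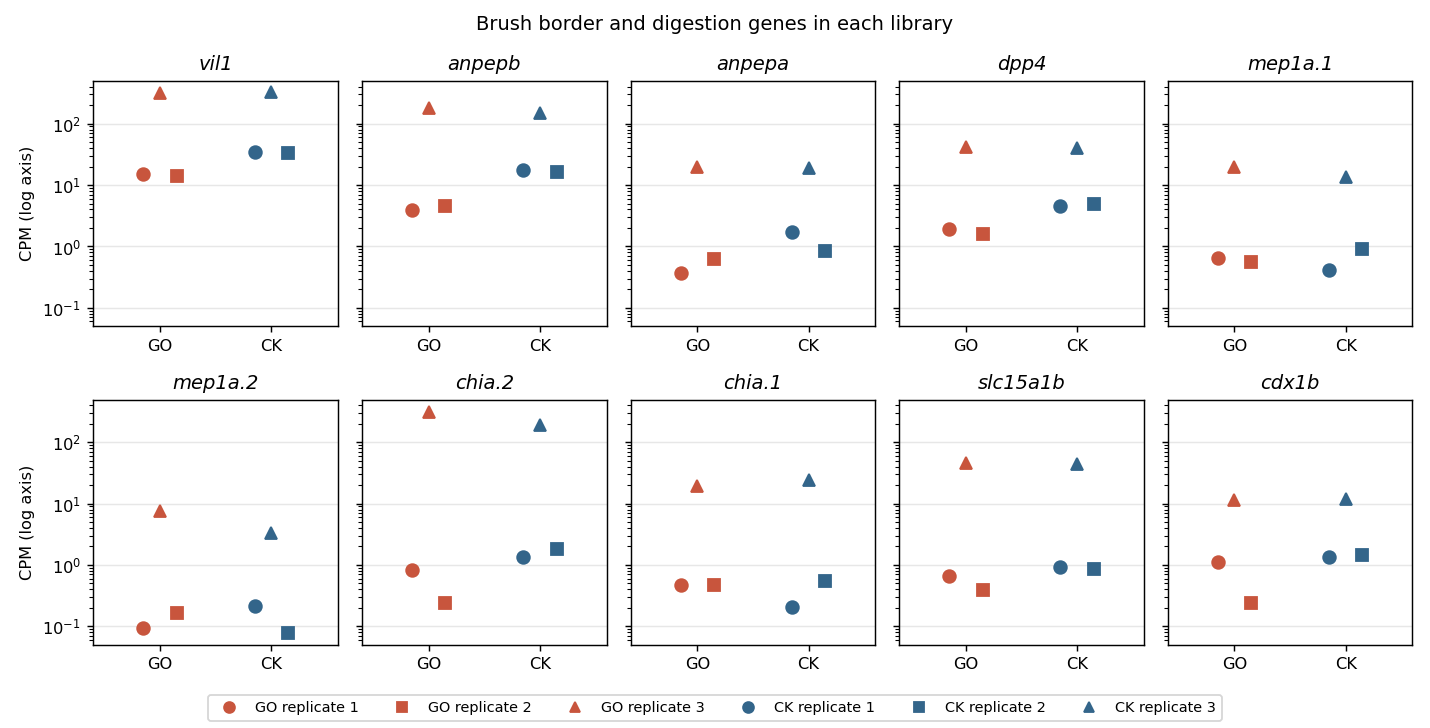
CPM of each of the 10 genes (log axis) in the GO libraries on the left of each panel and the CK libraries on the right, with 1 point per library and a triangle for replicate 3. In every panel both triangles lie above all 4 other points, and for vil1, anpepb and dpp4 the GO circle and square lie clearly below the CK circle and square.

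The structural gene of the set is vil1 (gene ID 393207), whose product villin bundles the actin filaments inside microvilli. It was at 15.3, 14.1 and 314 CPM in GO replicates 1, 2 and 3, against 34.8, 33.2 and 326 CPM in CK replicates 1, 2 and 3. The groups overlapped over all 6 libraries but not within replicates 1 and 2. There vil1 fell, with a log2 fold change of -1.26 ± 0.11 (SE; adjusted p = 2.62e-23, edgeR quasi-likelihood test). In the replicate 3 pair the CPM ratio of GO to CK was 0.964, with a 95% counting interval of 0.920 to 1.01.

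Aminopeptidase N, which removes single amino acids from the front end of peptides, is encoded by the paralogs anpepb (322533) and anpepa (558452). The more abundant, anpepb, was at 3.90, 4.598 and 179 CPM in GO replicates 1, 2 and 3, against 17.5, 16.5 and 150 CPM in CK replicates 1, 2 and 3. It was lower in both GO libraries than in both CK libraries of replicates 1 and 2, and it had the most negative log2 fold change of the tested members there, -2.04 ± 0.17 (SE; adjusted p = 2.35e-25, edgeR). The direction was the other way in replicate 3, where the ratio of GO to CK was 1.19 (95% counting interval 1.11 to 1.27).

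The paralog anpepa was at 0.372, 0.634 and 19.9 CPM in GO replicates 1, 2 and 3, against 1.75, 0.846 and 18.7 CPM in CK replicates 1, 2 and 3. Its GO and CK values did not overlap in replicates 1 and 2, but they rest on 4 and 8 counts against 17 and 11 counts, and the log2 fold change of -1.32 ± 0.60 (SE) did not pass the test (adjusted p = 0.0942, edgeR). Without CK replicate 2 it did (adjusted p = 0.0442). The ratio in replicate 3 was 1.06 (0.874 to 1.29). The gene stood on 2 table rows, whose expected counts were not whole in 5 libraries. Their sum, which is the count used here, was whole in every library.

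Dipeptidyl peptidase 4, which removes dipeptides that end in proline or alanine and is not limited to the gut, is encoded by dpp4 (100301982). It was at 1.95, 1.59 and 42.1 CPM in GO replicates 1, 2 and 3, against 4.52, 5.001 and 40.2 CPM in CK replicates 1, 2 and 3. As for vil1 and anpepb, the 2 lowest libraries were GO replicates 1 and 2. The log2 fold change there was -1.49 ± 0.30 (SE; adjusted p = 1.54e-05, edgeR), and the ratio in the replicate 3 pair was 1.05 (95% counting interval 0.919 to 1.19).

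The meprin A genes mep1a.1 (553530) and mep1a.2 (565535) encode zinc proteases of the brush border and lie next to each other in the RefSeq gene order. In GO replicates 1, 2 and 3 mep1a.1 was at 0.651, 0.555 and 19.5 CPM, against 0.411, 0.923 and 13.7 CPM in CK replicates 1, 2 and 3. The values of replicates 1 and 2 overlapped, on 4 to 12 counts a library, and the log2 fold change of -0.27 ± 0.67 (SE) did not pass (adjusted p = 0.819, edgeR). In replicate 3 the GO library was higher, at a ratio of 1.42 (95% counting interval 1.15 to 1.76).

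The neighbour mep1a.2 had the lowest CPM of the set in every library but CK replicate 1, where chia.1 was lower. It was at 0.0929, 0.163 and 7.61 CPM in GO replicates 1, 2 and 3, against 0.219, 0.0769 and 3.37 CPM in CK replicates 1, 2 and 3. Outside replicate 3 that is 1 to 2.13 counts a library, below what 0 counts allow, so no direction can be read there. In replicate 3 it had 82 counts with GO and 39 in CK, a ratio of 2.26 (95% counting interval 1.53 to 3.40).

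The acidic chitinase genes chia.2 (406338) and chia.1 (406323) are also neighbours in the RefSeq gene order, and their products cut chitin. Of all 10 genes chia.2 differed most between libraries. It was at 0.837, 0.238 and 316 CPM in GO replicates 1, 2 and 3, against 1.33, 1.85 and 188 CPM in CK replicates 1, 2 and 3. It fell in GO replicates 1 and 2, with a log2 fold change of -1.68 ± 0.55 (SE; adjusted p = 0.0135, edgeR), on 9 and 3 counts with GO against 13 and 24 counts in CK. That call was lost with DESeq2 (adjusted p = 0.220), with limma (0.0972 and 0.125 for pseudocounts of 1 and 0.1), without GO replicate 2 (0.290) and without CK replicate 2 (0.185). In replicate 3, on 3399.87 expected counts with GO and 2173.18 in CK, it was higher in the GO library, at a ratio of 1.68 (95% counting interval 1.59 to 1.78).

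The neighbour chia.1 was at 0.465, 0.476 and 19.7 CPM in GO replicates 1, 2 and 3, against 0.205, 0.538 and 24.5 CPM in CK replicates 1, 2 and 3. Its GO and CK values overlapped in replicates 1 and 2, and the log2 fold change of 0.20 ± 0.84 (SE) did not pass (adjusted p = 0.898, edgeR). In replicate 3 its ratio of 0.803 (95% counting interval 0.669 to 0.962) lay on the other side of 1 from that of chia.2.

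The transporter gene slc15a1b (793301) encodes PEPT1, which carries dipeptides and tripeptides into the enterocyte together with protons. It was at 0.651, 0.396 and 45.7 CPM in GO replicates 1, 2 and 3, against 0.924, 0.846 and 43.3 CPM in CK replicates 1, 2 and 3. Both GO libraries of replicates 1 and 2 lay below both CK libraries, on 5 to 11 counts a library, and the log2 fold change of -0.82 ± 0.65 (SE) did not pass (adjusted p = 0.398, edgeR). The ratio in replicate 3 was 1.05 (95% counting interval 0.929 to 1.20).

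The regulator of the set is cdx1b (100004956), a caudal-type homeobox transcription factor of the developing gut. It was at 1.12, 0.238 and 11.2 CPM in GO replicates 1, 2 and 3, against 1.33, 1.46 and 11.997 CPM in CK replicates 1, 2 and 3. The value of GO replicate 2 rests on 3 counts and differed from GO replicate 1, which lay close to the CK libraries. The log2 fold change in replicates 1 and 2 was -1.16 ± 0.55 (SE; adjusted p = 0.109, edgeR) and passed without GO replicate 1 (adjusted p = 0.0201). The ratio in replicate 3 was 0.936 (0.728 to 1.20).

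Read together, 4 of the 9 tested genes fell with graphene oxide among replicates 1 and 2, namely vil1, anpepb, dpp4 and chia.2, and none rose. In the same fit 12.0% of all 19313 tested genes fell and 12.9% rose, 24.9% in all. GO lay below CK without overlap in replicates 1 and 2 for 7 of the 9 tested members and for 23.5% of all tested genes. The median log2 fold change was -1.26 over the 9 members and -0.0022 over all tested genes. Of the 9 members only 3, vil1, anpepb and dpp4, reached the tested level in replicates 1 and 2 alone. The others, chia.2 among them, reached it only through replicate 3, and these member counts and the median carry that limit. The spread in this fit is that between replicates 1 and 2 alone, which was small, with a common dispersion of 0.000717 against 0.166 over all 6 libraries.

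Hepatocyte and smooth muscle transcripts were lower in the same libraries. Of 13 tested hepatocyte genes 10 fell, including the plasma protein genes apoa2, tfa and rbp4 with log2 fold changes of -2.18, -1.67 and -0.48. The hepatocyte marker fabp10a had a log2 fold change of -0.40 ± 0.48 (SE; adjusted p = 0.595, edgeR) and did not pass. Of 6 tested smooth muscle genes 4 fell, acta2 by 1.03 on the log2 scale, while myh11a (-0.31) and smtnb (-0.02) did not pass. That list summed to 87.5 and 89.3 CPM in GO replicates 1 and 2, against 122 and 126 CPM in CK replicates 1 and 2. A list of 16 kidney tubule genes summed to 433 and 451 CPM, against 441 and 447 CPM, with 4 of 13 tested genes lower and 3 higher. The genes slc12a1, clcnk, atp1a1a.4 and slc12a3 fell, at log2 fold changes of -1.12, -0.997, -0.83 and -0.51. The genes slc20a1a, slc4a4b and lrp2a rose, at 0.55, 0.42 and 0.28. The largest part of each sum came from slc4a4a, at 133 and 136 CPM in GO against 125 and 124 CPM in CK. That gene (0.06) did not pass, and the near-equal sums do not show that each kidney tubule gene was unchanged. The exocrine pancreas list summed to 31.2 and 35.3 CPM in GO replicates 1 and 2, against 16.3 and 13.2 CPM in CK replicates 1 and 2. Of these sums the protease gene prss60.2, the 1 gene of 15 tested that changed, held 22.6 and 25.0 CPM in GO against 3.29 and 2.77 CPM in CK, and the median log2 fold change of the list was -0.38, or -0.44 with genes absent from a group at the bound. The part of these tissues in the fall of the gut genes was not tested.

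Over all 6 libraries no member passed, and no gene of the whole table did. In edgeR's quasi-likelihood test 0 of 19313 genes (0%) were called, while 438 had an unadjusted p under 0.05, none of them a member. DESeq2 called 10 genes, none of them a member. Of the tested members it gave an adjusted p only for cdx1b (0.9999, DESeq2), so it could not call the others. The log2 fold changes of the members ran from -0.30 ± 1.98 (SE) for chia.1 to 0.73 ± 2.61 (SE) for chia.2, each at an adjusted p of 0.9999. With the replicate number as a block, the call was the same for every member, and vil1 was at -0.78 ± 0.25 (SE; adjusted p = 0.282, unadjusted p = 0.0172). No member had its 3 GO libraries below its 3 CK libraries, where 3.42% of all tested genes did. GO replicate 3 lay above CK replicates 1 and 2 for every member, so this outcome was fixed beforehand and carries no support.

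For the same 4 genes the GO to CK difference of the single replicate 3 pair lay farther from that of replicates 1 and 2 than the spread between replicates 1 and 2. With 1 library per group in replicate 3, this compares those libraries and does not show that the effect of graphene oxide differed. The difference of the log2 fold changes, replicate 3 minus replicates 1 and 2, was 2.45 ± 0.45 (SE) for chia.2, 2.29 ± 0.17 for anpepb, 1.57 ± 0.30 for dpp4 and 1.21 ± 0.11 for vil1. The adjusted p-values of this interaction in edgeR were 3.46e-06, 1.21e-26, 1.54e-05 and 3.32e-20 in that order of genes. For the other 5 tested members they were 0.0645 to 0.711. Of all tested genes 6.63% passed in this direction and 7.59% in the other, 14.2% in all. The spread used here comes from replicates 1 and 2 alone and may be technical. Of the 9 tested members only 3 reached the tested level without replicate 3, and chia.2 was not among them. Outside replicate 3 chia.2 rests on 9 and 3 counts with GO against 13 and 24 counts in CK.

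**Figure D2:**
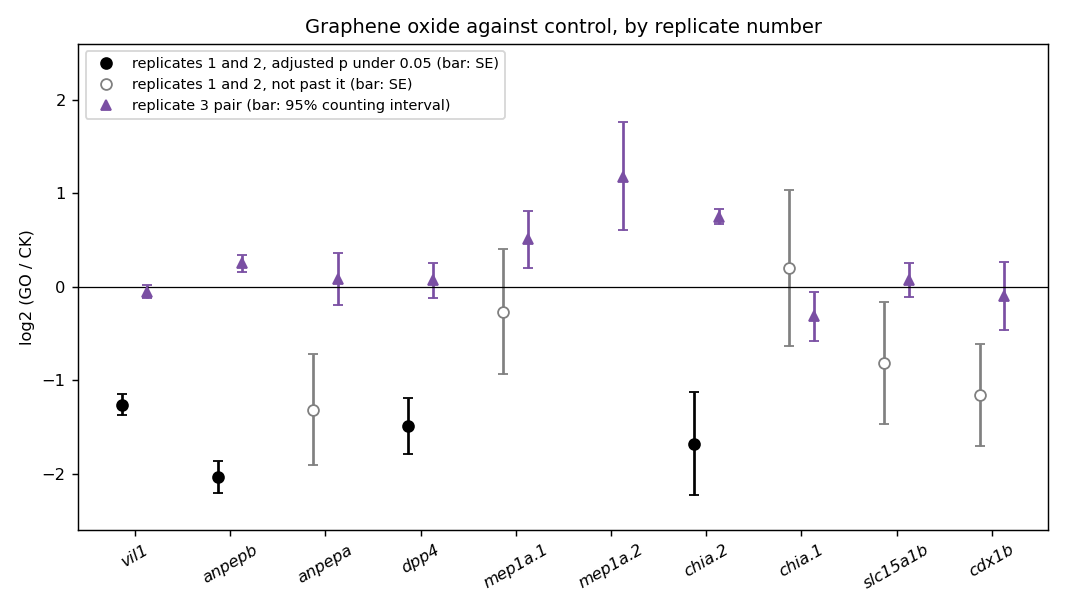
Log2 ratio of GO to CK for each gene, from the edgeR fit of replicates 1 and 2 (circles, bars are SE, filled where the adjusted p was under 0.05) and from the replicate 3 pair (triangles, bars are 95% counting intervals). The circles of vil1, anpepb, dpp4 and chia.2 lie at -1.26, -2.04, -1.49 and -1.68, while their triangles lie at -0.05, 0.25, 0.07 and 0.75. No circle is drawn for mep1a.2, which was not tested.

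Set against replicates 1 and 2, the replicate 3 libraries were higher for every one of the 10 genes, but by very different factors. In the GO group the CPM ratio of replicate 3 to the pooled replicates 1 and 2 ran from 17.5 (95% counting interval 10.2 to 32.2) for cdx1b through 21.4 (19.1 to 24.0) for vil1 and 88.9 (50.5 to 173) for slc15a1b to 615 (351 to 1191) for chia.2. In the CK group it was 8.52 (5.77 to 12.9) for cdx1b, 9.60 (8.88 to 10.4) for vil1, 49.3 (31.6 to 81.3) for slc15a1b and 115 (83.4 to 164) for chia.2. Of the 10 genes chia.2 had the highest value of this ratio in both groups, which is given as a description only.

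In the fit of replicate 3 against replicates 1 and 2, with the group as a term, the log2 fold change was 7.81 ± 0.32 (SE) for chia.2, 5.94 ± 0.19 for slc15a1b and 5.59 ± 0.23 for chia.1. It was 4.61 ± 0.26 for mep1a.1, 4.43 ± 0.31 for anpepa and 4.11 ± 0.38 for anpepb. It was lowest for vil1, dpp4 and cdx1b, at 3.80 ± 0.22, 3.68 ± 0.27 and 3.48 ± 0.35. All 9 tested members were past the threshold as higher, where 28.8% of all tested genes were, with 27.0% lower and 55.9% in either direction. Both replicate 3 libraries lay above the other 4 for the 9 tested members and for 34.1% of all tested genes. These counts carry no support, because the split was chosen with the difference of these libraries known and 6 of the 9 members reached the tested level only through replicate 3. The other 3, vil1, anpepb and dpp4, reached it in replicates 1 and 2 alone.

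Level per length showed the same change of makeup. In replicates 1 and 2 vil1 had the highest TPM (a level corrected for transcript length and depth) of the set, at 5.97 and 5.45 TPM in GO and 12.2 and 11.4 TPM in CK, which was 53.1% and 56.5% of the summed TPM of the 10 genes in GO and 51.7% and 49.3% in CK. In replicate 3 chia.2 came first, at 240 TPM in GO and 139 TPM in CK, with 47.0% and 35.5% of the sum, and vil1 was second with 22.9% and 30.1%. Among all 36191 gene IDs chia.2 ranked 442 in GO replicate 3 and 685 in CK replicate 3 by TPM, but between 17706 and 22284 in the other 4 libraries.

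The paralogs differed in how evenly they were expressed. The TPM of anpepb was 9.59 times that of anpepa in GO replicate 3 and 8.55 times in CK replicate 3, and 7.54 to 20.7 times in the other libraries. For the meprin pair, mep1a.1 was at 3.19 times the TPM of mep1a.2 in GO replicate 3 and at 5.08 times in CK replicate 3. In replicates 1 and 2 it was at 9.0 and 4.22 times in GO and at 2.36 and 14.2 times in CK, on 1 to 2.13 counts of mep1a.2. For the chitinase pair, chia.2 was at 15.5 times the TPM of chia.1 in GO replicate 3 and at 7.39 times in CK replicate 3. In replicates 1 and 2 it was at 1.72 and 0.475 times in GO and at 6.47 and 3.30 times in CK, on 2 to 24 counts a gene, so the order of the chitinase genes there is uncertain.

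**Figure D3:**
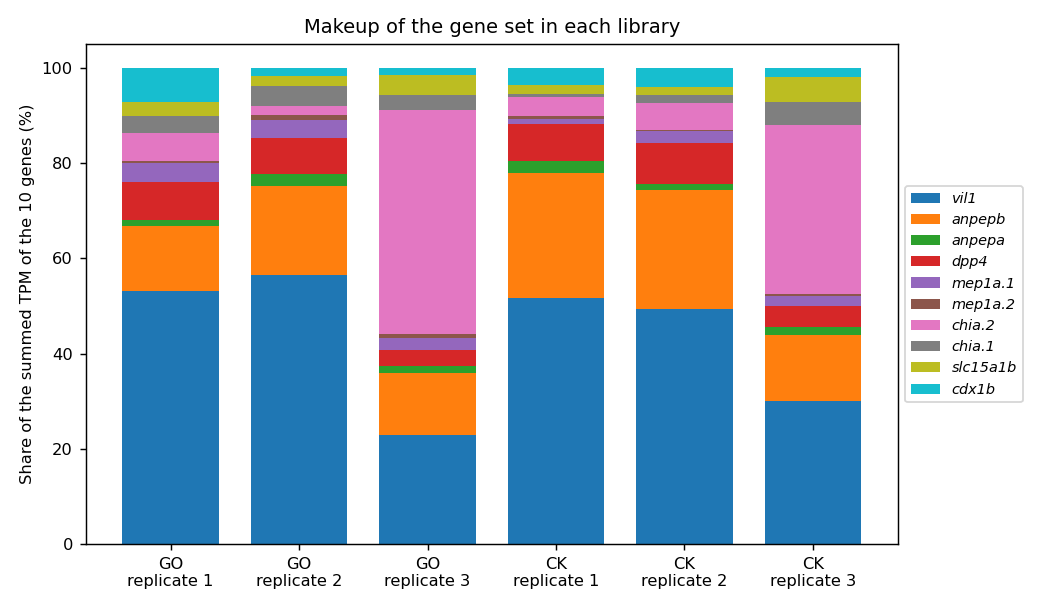
Share of each gene in the summed TPM of the 10 genes, as 1 stacked bar per library, with the GO libraries on the left and the CK libraries on the right. vil1 holds 49.3% to 56.5% of the bar in replicates 1 and 2 and 22.9% to 30.1% in replicate 3, where chia.2 holds 35.5% to 47.0%.

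Further genes of the same surface were read from lists. Beside the list counts for replicates 1 and 2 stand 12.0% of all tested genes that fell and 12.9% that rose, and 2 of 12 is near that share. Of 12 tested brush border enzyme genes 2 fell in GO replicates 1 and 2 and 0 rose, with a median log2 fold change of -0.62, or -0.21 with genes absent from a group set at the bound given by 3 counts. The aminopeptidase A gene enpep fell by 0.93 on the log2 scale. The peptidase genes ace and cpvl, at 0.05 and -0.09, did not pass.

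Of 19 brush border structure genes 8 fell and 1, the ezrin gene ezrb, rose among replicates 1 and 2 (median -0.49). The cadherin gene cdh17 was at 24.3, 24.9 and 177 CPM in GO replicates 1, 2 and 3, against 40.4, 36.2 and 147 CPM in CK replicates 1, 2 and 3. Its log2 fold change in replicates 1 and 2 was -0.68 ± 0.10 (SE; adjusted p = 1.19e-10, edgeR).

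Of 25 absorptive transporter genes 8 fell and 0 rose (median -0.57). The citrate transporter gene slc13a2 and the iron exporter gene slc40a1 fell by 1.05 and 0.23 on the log2 scale, and slc3a2a, a subunit of amino acid transporters, had a log2 fold change of 0.01 and did not pass. A list of further chitin genes had 5 tested members. Its chitinase-related genes chia.6, chid1, chia.5 and ctbs did not pass, with log2 fold changes of 1.92, -0.24, -1.74 and -0.11 and adjusted p-values of 0.0663, 0.207, 0.273 and 0.84 in that order (edgeR). The chitin synthase gene chs1, whose product makes chitin and is no chitinase, fell, at -1.28 ± 0.47 (SE; adjusted p = 0.0312, edgeR).

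Of 20 tested lipid and vitamin handling genes 14 fell and 0 rose (median -1.47). The apolipoprotein genes apobb.1, apoa1b and apoa1a had log2 fold changes of -1.84, -1.82 and -1.31, and hepatocytes express these genes too. Among 23 intestinal transcription factor genes, 1 fell and 1 rose (median -0.04, or -0.12 with genes absent from a group at the bound). The gene that fell was hnf1ba, at -0.85, and the one that rose was klf5l, at 0.41, while vdrb and elf3 had 0.37 and 0.01 and did not pass.

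In replicate 3 against replicates 1 and 2 the list medians were 2.63 for brush border enzymes, 1.91 for brush border structure, 3.29 for transporters, 4.82 for lipid and vitamin genes and 1.65 for transcription factors, beside 4.43 for the 9 tested members and 0.0002 for all tested genes. Of the tested genes in these 5 lists, 12 of 12, 16 of 19, 23 of 25, 20 of 20 and 16 of 23 were higher in replicate 3. Of all tested genes 28.8% were. In this comparison the counts and medians of every list carry no support. The split was chosen with the difference of these libraries known, and list genes could reach the tested level through replicate 3 alone. The hepatocyte median was 4.80 and the exocrine pancreas median 8.87. The pancreas list summed to 3245 CPM in GO replicate 3 and 3104 CPM in CK replicate 3. Its trypsin gene try was at 1.12, 2.06 and 523 CPM in GO replicates 1, 2 and 3, against 2.46, 1.85 and 506 CPM in CK replicates 1, 2 and 3, and prss59.2 and ctrb1 lay under 2 CPM outside replicate 3.

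**Figure D4:**
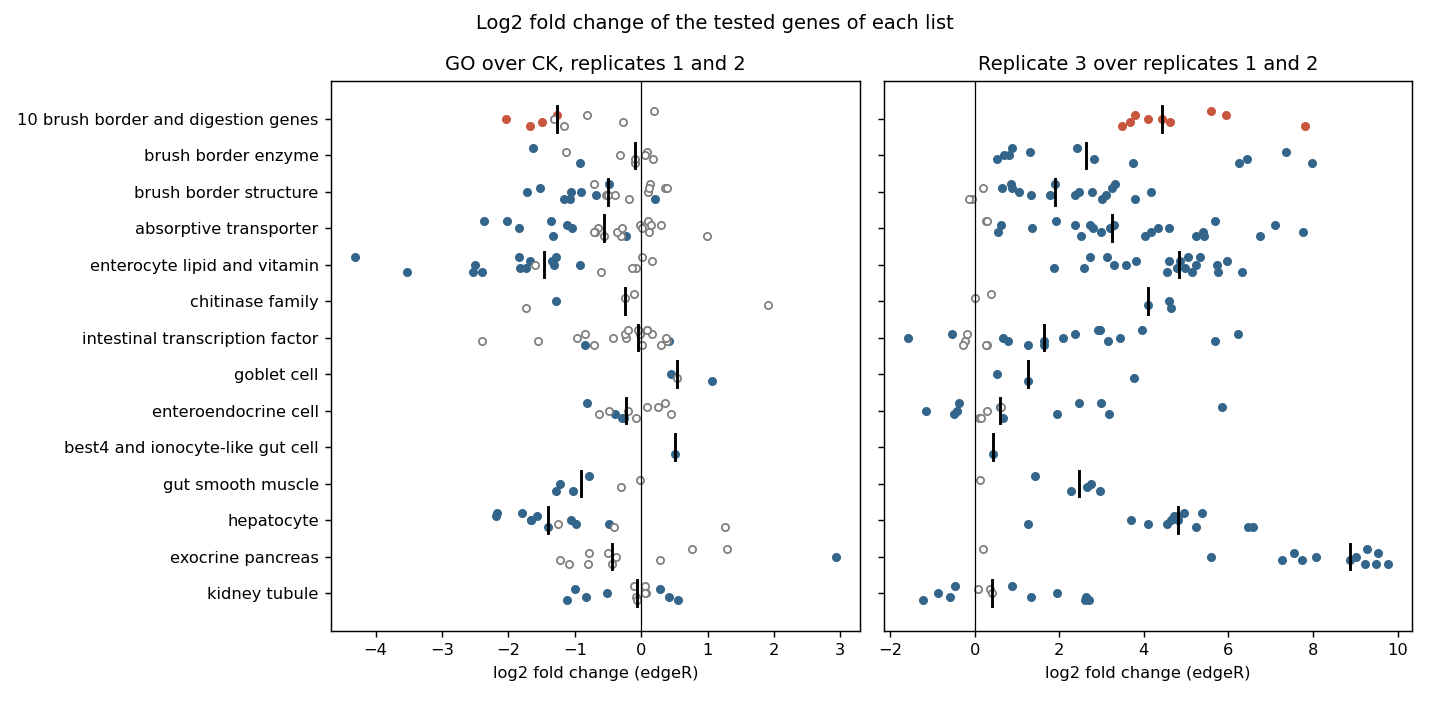
Log2 fold change of each tested gene (1 point a gene, filled where the adjusted p was under 0.05) for the 10 brush border and digestion genes, of which 9 were tested, and 13 other lists, with a vertical bar at the median of the points drawn. On the left GO is set against CK in replicates 1 and 2, and on the right replicate 3 against replicates 1 and 2, where the gut genes centre at 4.43 and the pancreas genes lie farthest right. Genes absent from all libraries of 1 side are not drawn, and the row named chitinase family includes the chitin synthase gene chs1.

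Genes outside the set were ranked by how closely they followed it. Likeness was the root mean square distance, over the 6 libraries, between a gene's centred log2 CPM and the mean centred log2 CPM of the 9 tested members. The 5 nearest of 15392 named genes were the complement gene c3b.1 (0.11 log2 units), the prothrombin gene f2 (0.14), the liver glycogen synthase gene gys2 (0.17), the fibrinogen gene fga (0.21) and the intestinal fatty acid-binding protein gene fabp2 (0.22). The members themselves lay 0.46 to 1.504 log2 units from their own mean, with anpepa nearest and chia.2 farthest. In fabp2 the values were 7.06, 7.69 and 345 CPM in GO replicates 1, 2 and 3, against 17.9, 18.2 and 358 CPM in CK replicates 1, 2 and 3. Its log2 fold change in replicates 1 and 2, -1.34 ± 0.15 (SE; adjusted p = 2.08e-15, edgeR), was close in size to that of vil1. The fibrinogen gene fga, a hepatocyte gene that lay nearer to the set than fabp2, fell there too, at -0.98 ± 0.16 (SE; adjusted p = 2.41e-08, edgeR).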

How the data were processed

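Each of the 6 libraries had 1 table. The authors deposited expected counts, which are estimated counts and were not always whole, and the deposited TPM and FPKM values, per the file headers, are scaled for length and depth. Bowtie2 2.3.2 and GRCz11 are named in the submitters' processing notes; for the counting program and for strand use, the sources used here give no name or setting. Rows were summed by gene ID. All 10 gene IDs were found in a RefSeq gene table of another assembly (GRCz12tu), used for names and gene order only.

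Expected counts were rounded and tested with edgeR 4.0.16 (quasi-likelihood test, TMM scaling, R 4.3.3) over the 19313 genes whose FPKM averaged at least 1 across all 6 libraries, with Benjamini-Hochberg adjustment over all of them, two-sided, at 0.05. The SE is the log2 fold change divided by the square root of F. CPM are unscaled. Counting intervals are exact binomial (95%) and, like the floor of 3 counts, cover counting error only. Alternatives used DESeq2 1.42.0 and limma 3.58.1. The scripts were tested on simulated counts with dispersions unlike those of the data. For GO against CK over all 6 libraries the simulation held no replicate 3 difference. That check therefore covers the code only.

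To check pairing, deviations from the group mean were correlated across genes between libraries of the same number, giving 0.77, 0.78 and 0.88 for numbers 1, 2 and 3. The value for number 3 shows that the replicate 3 libraries of GO and CK deviated alike. Because each group mean includes replicate 3, that alone makes the values for numbers 1 and 2 high. The check therefore cannot tell whether numbers 1 and 2 pair the libraries, and the labels do not say so. The values given come from fits without the replicate number as a block, and the fit with the replicate block is named where it is used. Replicates 1 and 2 of a group differed by more than sampling noise (chi-square per degree of freedom 1.56 in GO and 1.62 in CK). The members, the replicate split and the lists were chosen with earlier results of these data known. All members were named, and from each list the genes with the highest mean CPM, up to 3; some of these are not reported here. Genes named outside this rule (fabp10a, enpep, hnf1ba, chia.5, ctbs, slc12a1, clcnk, slc12a3, slc20a1a, slc4a4b, lrp2a, muc2.1, best4, tacr2, cftr, otop2 and prss60.2) were chosen after their values were seen.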

Additional observations from a re-analysis of the deposited data

Results flagged for a closer look

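For 4 of the 9 tested genes the interaction of group and replicate number passed as higher in replicate 3, where 6.63% of all tested genes passed in this direction and 14.2% in either. Replicate 3 is 1 library per group, and the test uses only the spread between replicates 1 and 2, which may be technical, so it compares these libraries and does not show that the effect of graphene oxide differed. The log2 difference, replicate 3 minus replicates 1 and 2, was 2.29 for anpepb, 1.21 for vil1, 2.45 for chia.2 and 1.57 for dpp4. In replicates 1 and 2 all 4 were lower with GO, and in replicate 3 the ratio of GO to CK was 1.19, 0.964, 1.68 and 1.05 in the same order of genes. Of these 4 genes chia.2 reached the tested level only through replicate 3. The replicate 3 libraries also held 13.5 times (GO) and 7.78 times (CK) the summed hepatocyte transcripts of replicates 1 and 2. Outside replicate 3 most of that sum was rbp4, whose replicate 3 log2 fold change was 1.26, beside a median of 4.80 for the tested hepatocyte genes. The part of the hepatocyte transcripts in the difference was not tested.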

How the results depend on the processing

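Over all 6 libraries no alternative called a member, but DESeq2 gave an adjusted p only for cdx1b among the tested members and could not call the others. With 1 library left out, the log2 fold change of GO against CK ran from its lowest value without GO replicate 3 to its highest without CK replicate 3, since replicate 3 then stands in 1 group only: -3.78 to 2.37 for anpepa, -3.85 to 1.81 for anpepb, -3.15 to 1.69 for vil1, -4.82 to 4.06 for slc15a1b, -3.04 to 3.25 for mep1a.1, -4.12 to 4.05 for chia.1, -6.89 to 5.96 for chia.2, -2.88 to 1.51 for cdx1b and -3.23 to 1.61 for dpp4. The sign also turned, at values that passed no test, for anpepb with the replicate block (-0.92), upper-quartile scaling (-0.007) and limma (-0.90 and -1.21 for pseudocounts of 1 and 0.1), for slc15a1b with the replicate block (-0.10) and limma (-0.0897 and -0.36), for chia.2 with limma (-0.17 and -0.75), for chia.1 with limma at 0.1 (0.11) and for anpepa on the table row with the most counts (0.28); the cause was not tested. In replicates 1 and 2 the replicate block changed no member call (4 of 9), and 3 to 5 members were called with 1 library left out, where mep1a.1 ran from -0.67 to 0.48 and chia.1 from -0.24 to 1.10. Over all genes the calls there numbered 4810, against 2047 with DESeq2 and 2468 and 2273 with limma at pseudocounts of 1 and 0.1. By TPM in place of CPM, the summed members in replicate 3 were 48.8 times the mean of replicates 1 and 2 in GO (CPM 40.3) and 16.8 times in CK (CPM 13.2), and GO over CK was 0.447 in replicates 1 and 2 (CPM 0.389) and 1.298 in replicate 3 (CPM 1.19). The interaction of group and replicate number was refitted only with other edgeR scalings and filters, not with DESeq2, limma or a library left out. Low counts limit chia.1, chia.2, mep1a.1, mep1a.2, anpepa, slc15a1b and cdx1b outside replicate 3.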

Other observations

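Lists of other gut cell types were also read in replicates 1 and 2. Of 3 tested goblet cell genes 2 rose and 0 fell. The background shares in this fit were 12.9% higher and 12.0% lower. The list's mucin gene muc2.1 was too scarce to be tested. Its level was 0 and 0 CPM in GO replicates 1 and 2, against 0 and 0.154 CPM in CK replicates 1 and 2. Whether goblet cells of the gut were the source of the rise was not tested. The mucin gene muc5.1 was at 129, 120 and 190 CPM in GO replicates 1, 2 and 3, against 57.7, 56.5 and 215 CPM in CK replicates 1, 2 and 3, and agr2 had a log2 fold change of 0.44 in replicates 1 and 2, where spink4 (0.54) did not pass. Of 15 enteroendocrine genes 4 fell and 0 rose, among them neurod1 at -0.29 and pax6b at -0.26, and scg3 (0.09) did not pass. These 3 genes do not stand for the list, and whether enteroendocrine cells were the source of their transcripts was not tested. In replicate 3 against replicates 1 and 2 neurod1, pax6b and scg3 were lower, at -0.50, -1.14 and -0.37. Of the 15 genes 7 were higher there and 4 lower. The carbonic anhydrase gene ca2, the only tested gene of a list of 5 best4 cell genes, rose by 0.51 on the log2 scale, and it is expressed in many tissues. The other 4 genes were scarce in replicates 1 and 2: best4 was at 0.465 and 0 CPM in GO against 0.616 and 0.769 CPM in CK, tacr2 at 1.49 and 0.873 CPM against 1.75 and 1.54 CPM, cftr at 1.49 and 1.51 CPM against 1.64 and 1.54 CPM, and otop2 at 0.744 and 1.11 CPM against 0.924 and 0.846 CPM. In the exocrine pancreas list the protease gene prss60.2 was at 22.6, 25.0 and 12.99 CPM in GO replicates 1, 2 and 3, against 3.29, 2.77 and 10.2 CPM in CK replicates 1, 2 and 3, the only one of the 15 tested genes of that list to change in replicates 1 and 2.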
